A study of Homo sapiens with 4 samples.

Results

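The 34 genes described here carry antigen to the cell surface or mark a cell for natural killer (NK) cells. They are 15 HLA genes (HLA-B, HLA-C, HLA-E, HLA-F, HLA-G and 10 class II genes), B2M, the peptide-loading genes TAP1, TAP2, TAPBP, PSMB8, PSMB9, ERAP1 and ERAP2, the regulators CIITA, NLRC5 and RFX5, the invariant chain gene CD74, and the NK ligand genes MICA, MICB, ULBP1, ULBP2, ULBP3, PVR and NECTIN2. A peak was assigned to a gene when that gene's body was the nearest protein-coding gene body to the peak summit, within 100 kb, among 19974 protein-coding genes. By this rule 163 peaks in 4 libraries belonged to 13 of the 34 genes, and overlapping peaks merged into 54 regions out of 122632 in all.

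The libraries are ATAC-seq, which uses the Tn5 transposase to cut open chromatin, from OPM-2, a human multiple myeloma cell line of the t(4;14) type. Cells were exposed for 72 h to 1 µM all-trans retinoic acid (ATRA), to 1 µM pomalidomide (POM), to both agents at 1 µM each (ATRA+POM), or to the vehicle DMSO. Each condition had 1 library, so no difference below has a replicate check and none was tested. ATRA binds the retinoic acid receptors, and pomalidomide binds cereblon and directs the transcription factors IKZF1 and IKZF3 to degradation. All libraries come from 1 cell line, with no second line for comparison.

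MHC class I molecules, built from an HLA heavy chain and beta-2 microglobulin, show peptides cut in the cell to CD8 T cells; NLRC5 is the activator of their promoters. Class II molecules show peptides from endosomes to CD4 T cells; CIITA is their master activator, CD74 guards their groove, and both regulators act through the RFX complex, of which RFX5 is a subunit. NK cells read a different set of surface proteins: the receptor NKG2D binds MICA, MICB and the ULBP proteins, and DNAM-1 binds PVR (CD155) and NECTIN2 (CD112). Plasma cells normally silence CIITA as they form from B cells.

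Of the 34 genes, 21 lie in 3 stretches of the genome in which none of the 4 lists holds a summit, and they are not analysed here. HLA-E, HLA-F and HLA-G lie in a 2.78 Mb stretch of chromosome 6 that covers 69 protein-coding genes. The 10 class II genes, TAP1, TAP2, TAPBP, PSMB8, PSMB9, MICA and MICB lie in a second stretch of 2.14 Mb with 101 protein-coding genes, and B2M lies in a 0.348 Mb stretch of chromosome 15. HLA-B and HLA-C sit between both stretches of chromosome 6, where the lists hold 8 summits in all, so nothing is read from a missing peak at these genes; the counts of gained and lost regions below are also given without them where they differ. HLA-C had a single peak, in the ATRA+POM library, 1.70 kb outside the gene with a pileup of 10 reads.

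The promoters below, from RefSeq on GRCh38.p14, are those of RFX5, PVR, ULBP1, ULBP2 and CD1D, a class I-like gene described at the end. They are a selection of the promoters searched. Those of HLA-B, ERAP1 and ULBP3, whose start-site regions are also described below, were searched but are not printed. Each is the 250 bases before the start site. Capitals mark the letters searched on both strands: ATTGG (the Y box), GCAAC (part of the X box bound by RFX), TGACG (the core bound by CREB) and AGGTCA (the hexamer bound by nuclear receptors), and a match on the other strand appears as its complement read backwards.
RFX5, chr1:151347253-151347502, minus strand: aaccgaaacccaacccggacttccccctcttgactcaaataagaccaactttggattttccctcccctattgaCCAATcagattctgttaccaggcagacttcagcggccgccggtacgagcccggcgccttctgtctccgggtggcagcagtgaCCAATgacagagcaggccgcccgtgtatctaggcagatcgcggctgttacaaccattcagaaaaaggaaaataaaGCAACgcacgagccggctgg
PVR, chr19:44643660-44643909, plus strand: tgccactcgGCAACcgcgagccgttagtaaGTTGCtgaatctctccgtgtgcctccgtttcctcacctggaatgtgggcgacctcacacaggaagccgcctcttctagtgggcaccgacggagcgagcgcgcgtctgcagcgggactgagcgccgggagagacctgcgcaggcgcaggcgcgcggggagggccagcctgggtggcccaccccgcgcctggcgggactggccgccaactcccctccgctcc
ULBP1, chr6:149963693-149963942, plus strand: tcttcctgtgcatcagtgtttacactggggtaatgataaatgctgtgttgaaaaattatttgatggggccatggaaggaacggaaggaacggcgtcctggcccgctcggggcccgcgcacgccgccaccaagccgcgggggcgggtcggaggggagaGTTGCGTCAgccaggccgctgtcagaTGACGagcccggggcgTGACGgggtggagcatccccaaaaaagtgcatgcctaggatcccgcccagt
ULBP2, chr6:149941764-149942013, plus strand: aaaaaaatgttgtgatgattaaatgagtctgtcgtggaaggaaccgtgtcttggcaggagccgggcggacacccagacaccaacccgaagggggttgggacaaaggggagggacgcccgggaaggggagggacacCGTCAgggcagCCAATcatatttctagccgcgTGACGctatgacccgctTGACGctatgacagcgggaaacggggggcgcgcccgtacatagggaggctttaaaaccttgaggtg
CD1D, chr1:158179697-158179946, plus strand: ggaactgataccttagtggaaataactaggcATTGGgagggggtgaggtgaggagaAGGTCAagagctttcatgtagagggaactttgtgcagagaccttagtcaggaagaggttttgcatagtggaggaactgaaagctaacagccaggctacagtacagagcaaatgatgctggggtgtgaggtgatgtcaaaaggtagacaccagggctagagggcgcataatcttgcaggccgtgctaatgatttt
ATTGG stood in 6 of the 11 promoters searched (those of 10 members and CD1D) and in 34.4% of all 15813 promoters of the same length. GCAAC stood in 4 of the 11, against 27.9% of all promoters, and TGACG in 3 of the 11, against 25.5%. In ULBP1 a GCAAC match and a TGACG match, both on the other strand, share 1 base, and both ULBP1 and ULBP2 held TGACG 3 times, counting both strands. AGGTCA stood in 1 of the 11, a share near the 10.3% of all promoters. The match was in the CD1D promoter, 194 bases before the start site. CD1D is not a member and was added to the search, and whether the match is bound was not tested. For the interferon-stimulated response element a single strict core pattern was searched, and it stood in 0 of the 11, against 2.72% of all promoters. Forms of the element that differ from this pattern were not searched, so its absence from these promoters, that of HLA-B included, cannot be read from the count.

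The number of member peaks differed little between libraries. The lists of ATRA, POM, ATRA+POM and DMSO held 41, 41, 40 and 41 of them, out of 76636, 69162, 85434 and 76402 peaks used. These are shares of 0.0535% in ATRA (95% Wilson interval 0.0394 to 0.0726), 0.0593% in POM (0.0437 to 0.0804), 0.0468% in ATRA+POM (0.0344 to 0.0637) and 0.0537% in DMSO (0.0396 to 0.0728), so all 4 intervals overlap. Such intervals, here and below, cover counting error only. CIITA held the most peaks, with 7, 9, 8 and 9 in ATRA, POM, ATRA+POM and DMSO, followed by NLRC5 with 7, 8, 6 and 7 and ERAP1 with 8, 8, 7 and 7.

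**Figure D1:**
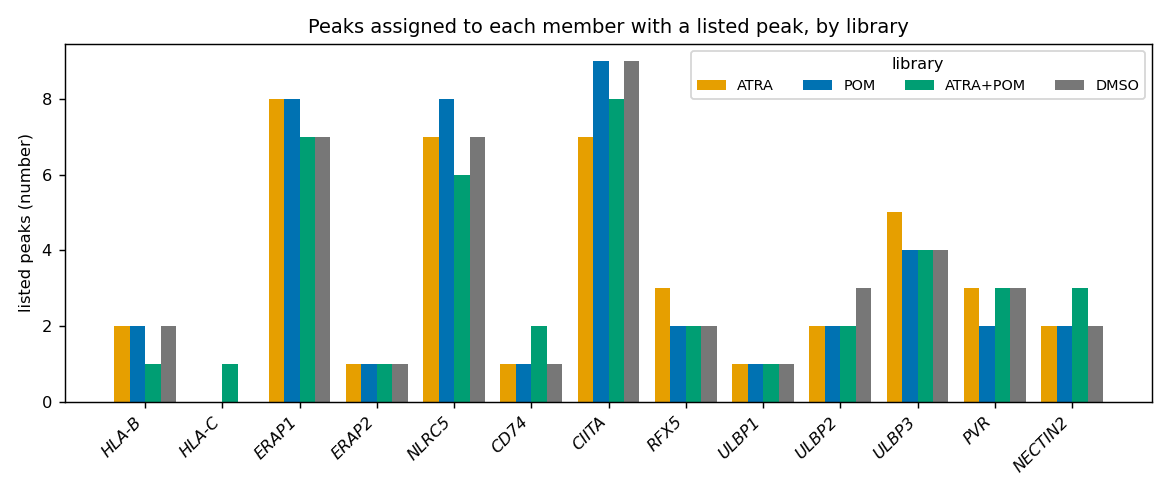
Number of listed peaks (y axis) assigned to each of the 13 genes with a listed peak (x axis), with 1 bar per library. CIITA, NLRC5 and ERAP1 hold 6 to 9 peaks in every library, and HLA-C has a bar in ATRA+POM alone.

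Member peaks lay at start sites more often than peaks did in general. A summit within 1 kb of the start site of its nearest gene was found for 11, 13, 11 and 11 member peaks in ATRA, POM, ATRA+POM and DMSO. These are 26.8%, 31.7%, 27.5% and 26.8% of member peaks, against 14.8%, 16.0%, 12.9% and 14.9% of all peaks in the same libraries. The Wilson interval for DMSO ran from 15.7 to 41.9%. For CIITA and NLRC5, whose start sites the annotation used here does not hold, either end of the gene body was taken in place of a start site. Where a summit was equally near another gene, the start site or gene end of that gene counted as well. This applies to the upper end of CIITA (near DEXI) and the far end of ERAP1 (near LOC124901030). The member start-site regions counted below include all of these regions. Member peaks also ranked above the middle of each list by the authors' −log10 q: their median percentile was 75.4, 59.4, 67.2 and 65.6 in ATRA, POM, ATRA+POM and DMSO. Ranked by the authors' fold, the medians were 63.8, 54.6, 57.0 and 49.5 in the same order. Of the 54 member regions, 28 (51.9%) were listed in all 4 libraries, against 35.0% of all 122632 regions. Start-site regions made up 11 of these 28, and 9853 of the 42930 regions of the whole series listed in all libraries. The share listed in all libraries was not compared within classes of position.

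Values below are summit pileups, the number of reads stacked at a peak's highest point, recovered from the deposited fold and p-value of each peak. A scaled pileup is the pileup divided by 0.874 in ATRA, 0.397 in POM and 0.708 in ATRA+POM, the factors that bring the 42930 regions listed in all libraries to the DMSO level at the median. The smallest background was 2.36, 0.55, 1.51 and 2.36 reads in the lists of ATRA, POM, ATRA+POM and DMSO. Depth was estimated as this value divided by the width of the narrowest peak in the same list. By this estimate ATRA, POM and ATRA+POM had 94.1%, 33.6% and 62.7% of the depth of DMSO. The smallest pileup listed was 8, 4, 7 and 8 reads in ATRA, POM, ATRA+POM and DMSO. A region counts as higher or lower past a 2-fold difference in scaled pileup, and as gained or lost when 1 of the lists compared holds it; depth and list length move gains and losses, and their part was not tested. Of the plasma cell genes SDC1, PRDM1, IRF4, XBP1, MZB1, POU2AF1, TNFRSF17 and SLAMF7, all but the last pair had a start-site peak in every library. Of the markers of other lineages, CD3E had one in every library and the other 11 (T cell, NK cell, monocyte and epithelial) had none.

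RFX5, the subunit of the complex through which both HLA classes are switched on, had the highest pileup of any member region. Its start-site region (chr1:151346833-151347832, hg38), which spans the promoter printed above, had pileups of 419 in ATRA, 193 in POM, 291 in ATRA+POM and 426 in DMSO. Scaled, these are 479, 487, 411 and 426, so the libraries stand within a narrow band. The ratio to DMSO was 1.13 in ATRA (95% exact binomial interval 0.981 to 1.29), 1.14 in POM (0.959 to 1.36) and 0.964 in ATRA+POM (0.828 to 1.12). An RFX5 region inside the gene had pileups of 131, 45, 64 and 139 in ATRA, POM, ATRA+POM and DMSO, a ratio of 0.650 for ATRA+POM over DMSO.

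CD74, which encodes the invariant chain of class II molecules, had 1 region, inside the gene at chr5:150409688-150410975 and 2.99 kb from the start site. Its pileup was 47 in ATRA, 70 in POM, 83 in ATRA+POM and 55 in DMSO. Scaled, the libraries with POM stood at 176 (POM) and 117 (ATRA+POM), above 53.8 in ATRA and 55 in DMSO. The ratio to DMSO was 3.21 in POM (2.22 to 4.65), 2.13 in ATRA+POM (1.5 to 3.05) and 0.978 in ATRA (0.648 to 1.47). Among the regions shared with DMSO, the POM ratio stood at percentile 96.6. By the authors' −log10 q among the 42930 regions in all lists, which uses no scaling, the CD74 region stood at percentile 91.1 in POM and 79.1 in ATRA+POM, against 36.9 in ATRA and 39.4 in DMSO. The region was wide in DMSO and ATRA and was listed as a pair of separate peaks in ATRA+POM.

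CIITA, the master activator of class II genes, had 12 regions, 6 of them in all 4 lists, and they did not move together. A region 23003 bp outside the gene body (chr16:10842932-10843662) had pileups of 15 in ATRA, 28 in POM, 32 in ATRA+POM and 18 in DMSO. Both libraries with POM stood higher here: the ratio to DMSO was 3.92 in POM (2.09 to 7.53), 2.51 in ATRA+POM (1.37 to 4.75) and 0.953 in ATRA (0.447 to 2.0). The region 10.9 kb inside the gene body (chr16:10876508-10877831) had pileups of 199 in ATRA, 47 in POM, 128 in ATRA+POM and 247 in DMSO. No CIITA start site is held here, so whether the region at 10.9 kb lies at one cannot be told. This region, with the highest DMSO pileup at CIITA, was lower in POM, at a ratio of 0.480 (0.343 to 0.658), and stood at 0.732 (0.586 to 0.909) in ATRA+POM and 0.922 (0.761 to 1.12) in ATRA. Near the upper end of the gene body, a region (chr16:10941442-10942768) has its summit at 10942459, in the bodies of both CIITA and DEXI. The summit lies 9 bp from a start site or gene end of DEXI, and the CIITA body ends farther away, at 10943021. The region thus cannot be given to CIITA alone. It had pileups of 238, 48, 60 and 228 in ATRA, POM, ATRA+POM and DMSO. It was lower in ATRA+POM than in DMSO, at 0.372 (0.275 to 0.496), and stood at 0.531 (0.380 to 0.727) in POM. A region at chr16:10881263-10881928 was listed with 24, 49 and 64 reads in POM, ATRA+POM and DMSO. It was not listed in ATRA, where the DMSO value projects to 55.9 reads. The DMSO peak itself stood little above its surroundings, at a fold of 2.66 over a local background of 23.5 reads (percentile 2.41 by fold).

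NLRC5, the activator of class I promoters, had 7 regions, 5 of them in all 4 lists, and all 5 stood below DMSO in both libraries with POM. The strongest, at the lower end of the gene body (chr16:56989099-56990553), had pileups of 249 in ATRA, 70 in POM, 113 in ATRA+POM and 278 in DMSO. Its ratio to DMSO was 0.635 in POM (0.481 to 0.828) and 0.574 in ATRA+POM (0.457 to 0.717), short of a 2-fold difference, and 1.02 in ATRA. A region inside the gene (chr16:57041748-57042727) had pileups of 75, 18, 27 and 91 in ATRA, POM, ATRA+POM and DMSO and was lower in both POM libraries, at 0.499 (0.283 to 0.833) in POM and 0.419 (0.262 to 0.650) in ATRA+POM. The region 948 bp beyond the upper end (chr16:57084018-57084842) had pileups of 75, 22, 24 and 87, and was lower in ATRA+POM than in DMSO at 0.389 (0.237 to 0.618). A weaker region at chr16:57049827-57050300, with 14 reads in ATRA and 20 in DMSO, was not listed in POM or ATRA+POM, where the DMSO value projects to 7.93 and 14.2 reads.

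**Figure D2:**
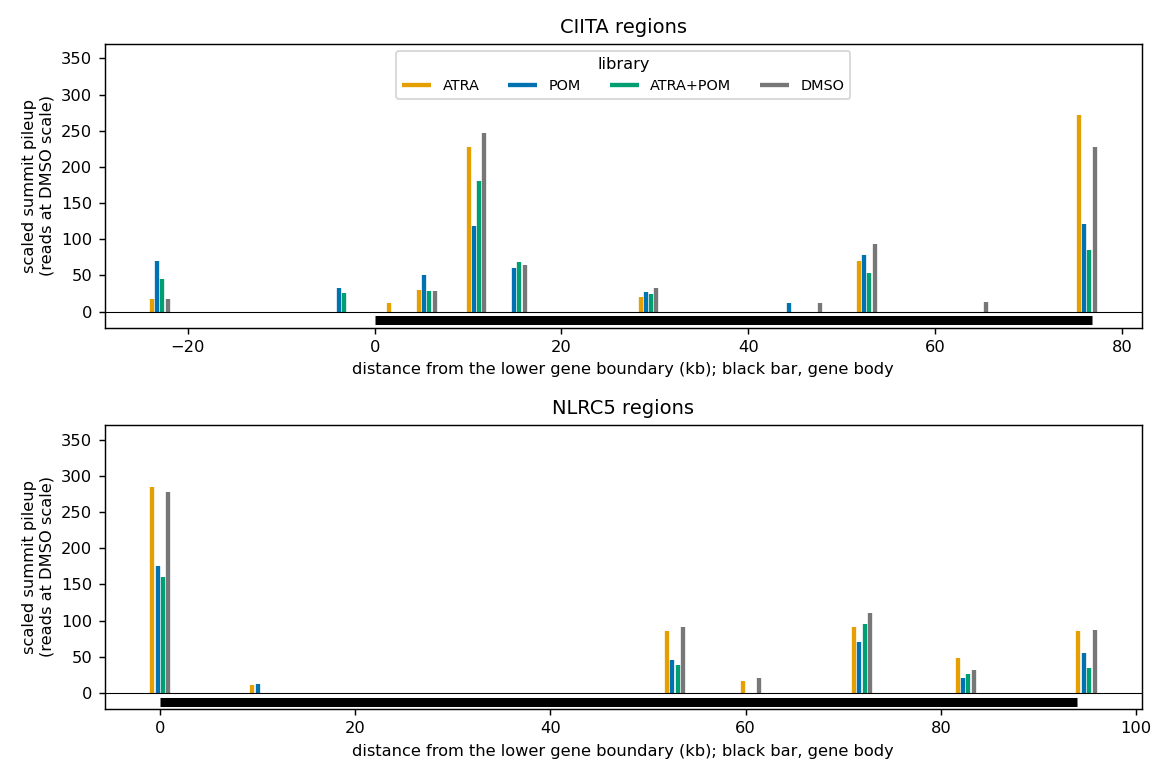
Scaled summit pileup (y axis, reads at the DMSO scale) of each CIITA region (upper panel) and NLRC5 region (lower panel) against the distance from the lower end of the gene body in kb (x axis), with 1 bar per library set side by side. At CIITA the leftmost region is tallest in POM and the region near 10.9 kb is tallest in DMSO; at NLRC5 the ATRA and DMSO bars stand above the POM bar in each of the 5 regions listed in all libraries.

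ERAP1 and ERAP2 encode the aminopeptidases that trim peptides for class I molecules. The ERAP1 start-site region (chr5:96807207-96808558) had pileups of 159 in ATRA, 47 in POM, 87 in ATRA+POM and 169 in DMSO, with ratios to DMSO of 1.08, 0.701 and 0.727. The region at the ERAP2 start, which lies inside the body recorded for ERAP1, had 34, 10, 21 and 32 reads, and the intervals of all its ratios to DMSO include 1. The gene body recorded for ERAP1 runs on beyond the ERAP1 start site. A region 2.42 kb from the ERAP1 start site, at chr5:96816151-96817325, had pileups of 89, 49, 105 and 68 in ATRA, POM, ATRA+POM and DMSO. It was higher in ATRA+POM at 2.18 (1.59 to 3.0), with 1.82 (1.23 to 2.66) in POM and 1.5 (1.08 to 2.08) in ATRA. By the authors' fold values these ratios were 1.18, 1.15 and 0.982, so the call was lost and the ATRA direction turned. Another at chr5:96822842-96823677, with 7, 16 and 10 reads in POM, ATRA+POM and DMSO, was past 2-fold in ATRA+POM at 2.26, with an interval (0.964 to 5.57) that includes 1. A region at chr5:96868777-96869337 had 55, 25, 33 and 45 reads in ATRA, POM, ATRA+POM and DMSO and a ratio of 1.04 (0.64 to 1.66) in ATRA+POM. The ERAP1 region at the far end, equally near LOC124901030, had 338, 125, 211 and 299 reads and a ratio of 1.29 (1.10 to 1.52) for ATRA over DMSO.

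The HLA-B start-site region (chr6:31356544-31357361), for the class I heavy chain, had pileups of 87 in ATRA, 24 in POM, 37 in ATRA+POM and 99 in DMSO. The ratio to DMSO was 0.611 in POM (0.374 to 0.962), 0.528 in ATRA+POM (0.351 to 0.777) and 1.01 in ATRA (0.745 to 1.35). HLA-B is highly variable between people and close in sequence to the other class I genes, so reads may have been placed on either copy. A second HLA-B region, 17.1 kb outside the gene, had 28, 8 and 20 reads in ATRA, POM and DMSO; it lies at the edge of the stretch with no summits.

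PVR, which encodes a ligand of DNAM-1, had 3 regions, all 2-fold lower in ATRA+POM than in DMSO. Its start-site region (chr19:44643589-44644809), over the promoter printed above, had pileups of 143 in ATRA, 32 in POM, 49 in ATRA+POM and 173 in DMSO. It was lower in both libraries with POM, at 0.466 (0.309 to 0.683) in POM and 0.4 (0.285 to 0.552) in ATRA+POM, and stood at 0.946 (0.752 to 1.19) in ATRA. Among all start-site regions these ratios stood at percentile 15.6 in POM and 9.25 in ATRA+POM. The other two PVR regions, both inside the gene, went the same way. The first (chr19:44654199-44654861) had 125, 31, 37 and 125 reads, a ratio of 0.418 (0.281 to 0.607) for ATRA+POM and 0.625 (0.408 to 0.933) for POM. The second (chr19:44657169-44657665) had 44, 20 and 66 reads in ATRA, ATRA+POM and DMSO, and was lower in ATRA+POM at 0.428 (0.246 to 0.715). It was not listed in POM, where the DMSO value projects to 26.2 reads. NECTIN2, the other DNAM-1 ligand, had its main summit 1384 bp before the start site, with pileups of 148, 47, 71 and 184 and ratios of 0.644 (0.457 to 0.891) in POM and 0.545 (0.408 to 0.720) in ATRA+POM. Its peak reached across the start site as 1 wide peak in ATRA and DMSO and was listed as a pair of separate peaks in POM and ATRA+POM.

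The NKG2D ligand genes ULBP1, ULBP2 and ULBP3 differed among themselves. The ULBP1 start-site region (chr6:149963128-149964112), its sole region, had pileups of 118 in ATRA, 34 in POM, 60 in ATRA+POM and 146 in DMSO, with ratios to DMSO of 0.925 (0.719 to 1.19), 0.587 (0.392 to 0.858) and 0.580 (0.422 to 0.789). The ULBP3 start-site region (chr6:150068679-150069571) had 70, 25, 35 and 52 reads, with ratios of 1.54 (1.06 to 2.25) in ATRA, 1.21 (0.721 to 1.99) in POM and 0.95 (0.601 to 1.49) in ATRA+POM. The ATRA ratio of ULBP3 is under 2-fold but stood at percentile 99.1 among start-site regions in that comparison. ULBP2 had a start-site peak in POM alone, with 8 reads. A ULBP2 region 7.63 kb upstream of the start site (chr6:149934273-149934644) had 67, 20 and 56 reads in ATRA, ATRA+POM and DMSO, was lower in ATRA+POM than in ATRA at 0.368 (0.212 to 0.615), and was not listed in POM, where the DMSO value projects to 22.2 reads. Another ULBP2 region, 3.11 kb upstream, had 50, 14, 35 and 69 reads in ATRA, POM, ATRA+POM and DMSO and a ratio of 0.512 (0.266 to 0.917) in POM. Beyond ULBP3, a region at chr6:150080590-150081054 had 54, 19 and 64 reads in ATRA, POM and DMSO and was not listed in ATRA+POM, where the DMSO value projects to 45.3 reads, and a region at chr6:150076386-150076653 had 28, 18 and 22 reads in ATRA, ATRA+POM and DMSO and was not listed in POM.

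**Figure D3:**
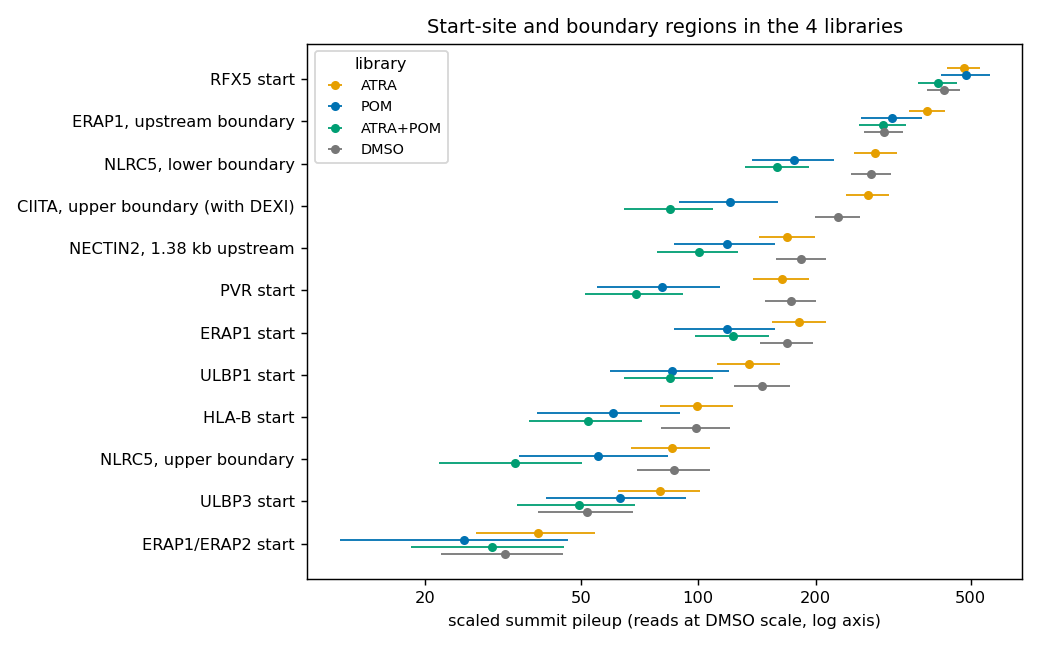
Scaled summit pileup (x axis, log scale, reads at the DMSO scale) of the start-site or gene-end regions of the members (y axis), with 1 point per library and 95% Poisson intervals that cover counting error only. The POM and ATRA+POM points lie left of the ATRA and DMSO points at PVR, HLA-B and ULBP1, and the 4 points lie close together at RFX5.

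ATRA alone was compared with DMSO to ask what the retinoid did by itself. Of the 35 member regions in both lists, 0 were 2-fold higher and 0 were 2-fold lower, where 1.11% and 0.778% of all shared regions were. The median log2 ratio of the members was 0.04, against 0.02 over all shared regions. The members had 6 gained and 6 lost regions of 47 in either list, near the 16.3% of all regions gained and 16.3% lost. The intervals of the weaker regions are wide, so differences under 2-fold were not detectable there.

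POM alone against DMSO gave 32 shared member regions, of which 2 were 2-fold higher (CD74 and CIITA) and 3 were 2-fold lower (CIITA, NLRC5 and PVR), where 13.0% of all shared regions were higher and 8.93% were lower. There were 6 gained and 9 lost of 47 in either list, where 19.5% and 29.1% of all regions were gained and lost. The median log2 ratio was -0.32 over the members, 21 of 32 lying below 0, and 0.04 over all shared regions. By the authors' fold values the member median was -0.04, and the median of all regions by those values is not given. On scaled pileups the members lay below all regions in each class of position. Member peaks were also stronger than peaks in general, with a median DMSO pileup of 64 against 30 over all peaks. The classes were not matched for peak strength, and its part in the difference was not tested. The median was -0.65 at the 11 member start-site regions and -0.47 at all 10095 start-site regions. It was -0.25 over the 15 other member regions inside genes and 0.10 over all such regions. Over the 6 member regions outside genes it was -0.25, against 0.27 over all such regions. Of the 11 member start-site regions, 0 were 2-fold higher and 1 was 2-fold lower, against 1.49% and 19.6% of all start-site regions.

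ATRA+POM against DMSO gave 34 shared member regions, 4 of them 2-fold higher (CD74, CIITA and 2 at ERAP1) and 6 of them 2-fold lower (1 at CIITA, 2 at NLRC5 and 3 at PVR), where 13.8% and 9.08% of all shared regions were. There were 4 gained and 7 lost of 45 in either list (3 and 6 without HLA-B and HLA-C), where 26.8% and 18.8% of all regions were. The median log2 ratio was -0.40 over the members and 0.05 over all. All 11 member start-site regions were below DMSO, with a median of -0.79, while 76.9% of all start-site regions were below DMSO, with a median of -0.47. Of the 11, 0 were 2-fold higher and 3 were 2-fold lower, against 1.6% and 20.7% of all start-site regions. The 3 were the PVR start site, the upper end of NLRC5 and the region near the upper end of CIITA. The last has its summit nearer to a start site or gene end of DEXI than to the end of CIITA. Away from start sites the median was -0.25 over 16 member regions inside genes, against 0.08 over all such regions. It was -0.35 over 7 member regions outside genes, against 0.28. These classes were not matched for peak strength either. By the authors' fold values the median over the members was -0.05, and that of all regions by those values is not given.

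**Figure D4:**
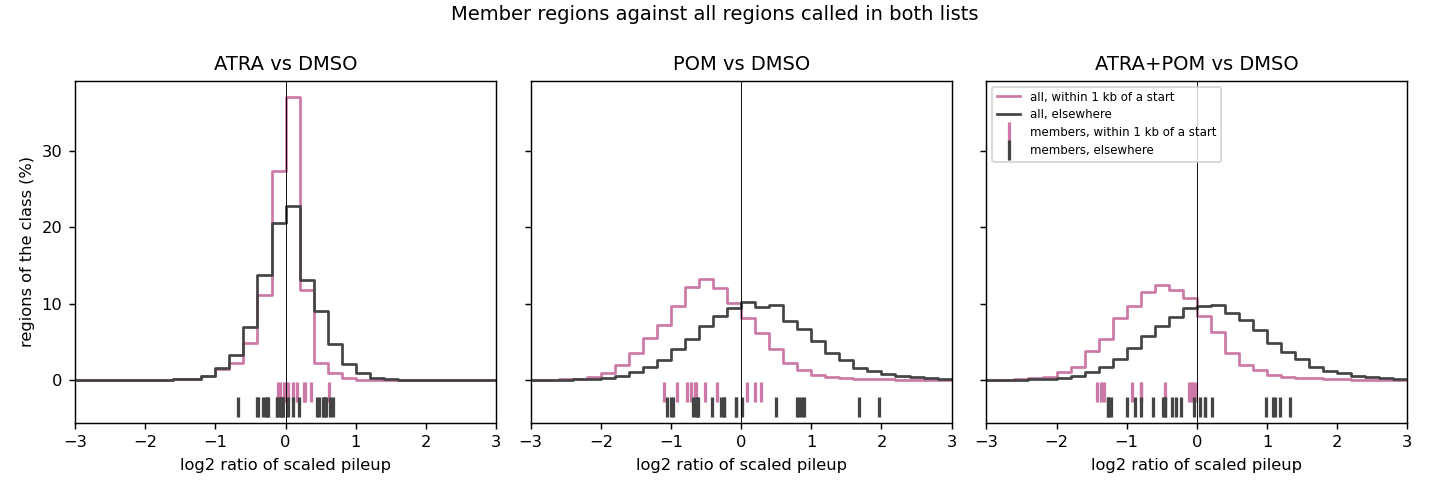
Distribution of the log2 ratio of scaled pileup (x axis) over all shared regions, as the percentage of the class (y axis), for regions within 1 kb of a start site and elsewhere, with a tick below for each member region; 1 panel per comparison with DMSO. With POM and ATRA+POM the start-site curve sits left of 0, and the member start-site ticks lie under it.

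POM added to ATRA, set against ATRA alone, uses a pair of libraries that the comparison of POM with DMSO does not. Of 32 shared member regions, 3 were 2-fold higher and 6 were 2-fold lower, where 11.8% and 8.47% of all shared regions were. Of 47 member regions in either list, 6 were gained and 9 lost (5 and 8 without HLA-B and HLA-C), where 27.1% and 19.2% of all regions were. The CD74 region was higher here too, at 2.18 (1.51 to 3.19), as was the CIITA region outside the gene, at 2.63 (1.39 to 5.23). The other was an ERAP1 region at chr5:96844285-96844954, with 11, 11, 21 and 15 reads in ATRA, POM, ATRA+POM and DMSO and a ratio of 2.36 (1.09 to 5.41). The NLRC5 region inside the gene was lower at 0.444 (0.275 to 0.698) and the PVR start site at 0.423 (0.299 to 0.589). Over the 28 member regions in all lists, 17 (60.7%) were lower in both comparisons and 4 (14.3%) higher in both, against 39.2% and 39.1% of all 42930 regions. At start sites, 8 of 11 member regions (72.7%) were lower in both, against 69.8% of all start-site regions. Elsewhere, 9 of 17 member regions (52.9%) were lower in both, against 30.1% of all such regions. Peak strength was not matched in these shares. A 2-fold difference in both comparisons was met by 2 member regions upward (CD74 and CIITA, 7.14%) and 2 downward (NLRC5 and PVR, 7.14%), where 6.89% and 4.59% of all regions met it.

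ATRA added to POM, set against POM alone, moved 0 of 32 shared member regions 2-fold higher and 0 lower, where 3.0% and 1.62% of all shared regions were. The members had 6 gained and 6 lost of 44 in either list (5 and 5 without HLA-B and HLA-C), where 30.4% and 12.4% of all regions were. Their median log2 ratio was -0.21, against 0.03 over all. The CD74 ratio in this comparison was 0.664 (0.477 to 0.926) and the CIITA ratio outside the gene 0.640 (0.373 to 1.10), so both stood lower with both agents than with POM alone, by less than 2-fold.

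The wider pathway was read from a second list of 35 genes: further proteasome, chaperone and protease genes, RFX and NF-Y subunits, interferon signalling genes, further NK ligands and CD1D and MR1. Of these, 34 had a region and 27 had a start-site region. In POM against DMSO 24 of these start-site regions were shared, 1 was 2-fold higher and 5 were 2-fold lower, with a median log2 ratio of -0.32. Over all start-site regions 1.49% were higher and 19.6% lower, with a median of -0.47, so the number lower is near the background. The lower ones were PSMB5 (a proteasome subunit, 0.279, 0.166 to 0.443), RFXANK (a partner of RFX5 in the RFX complex, 0.452, 0.335 to 0.601), CALR and PDIA3 (chaperones of class I assembly, 0.476 and 0.493) and IFNGR2 (an interferon gamma receptor chain, 0.495). For ATRA+POM against DMSO 26 were shared, 1 higher and 3 lower (PSMB5, CALR and RFXANK), with a median of -0.20, where 1.6% of all start-site regions were higher and 20.7% lower, with a median of -0.47. For ATRA against DMSO 1 of 26 was higher and 0 were lower, where 0.0654% and 0.822% of all start-site regions were. RAET1E, a further NKG2D ligand gene, had a start-site peak in POM (7 reads) and ATRA+POM (22 reads) and none in the other libraries.

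The gene higher in each of these comparisons was CD1D, which encodes a class I-like molecule that shows lipids to NKT cells. Its start-site region (chr1:158179337-158180147), with a summit 246 bp before the start site and so at the 5′ end of the promoter printed above, had pileups of 56 in ATRA, 20 in POM, 226 in ATRA+POM and 14 in DMSO. Scaled, these are 64.1, 50.4, 319 and 14.0, so each single agent stood above DMSO and the combination above every other library. The ratio to DMSO was 4.58 in ATRA (2.51 to 8.90), 3.6 in POM (1.73 to 7.71) and 22.8 in ATRA+POM (13.3 to 42.4). In ATRA+POM against DMSO no other of the 56425 shared regions had a higher ratio, and in ATRA against DMSO 1 other of 61179 did. ATRA+POM also stood above POM alone, at 6.33 (4.00 to 10.6), the highest of 54997 shared regions, and above ATRA alone, at 4.98 (3.70 to 6.80). Ratios at least as high as that of CD1D were found in 510 of 55959 shared regions in ATRA+POM against ATRA and in 1149 of 48458 in POM against DMSO. Neighbouring regions outside the gene moved less: one 14.8 kb away had 137, 101, 152 and 122 reads in ATRA, POM, ATRA+POM and DMSO and a ratio of 2.09 (1.59 to 2.74) in POM, and one 17.6 kb away had 146, 44, 125 and 113 reads and a ratio of 1.56 (1.20 to 2.03) in ATRA+POM. From the authors' own fold values, which divide the pileup plus 1 by the local background plus 1, the CD1D ratio to DMSO was 3.75 in ATRA+POM, 2.4 in ATRA and 1.87 in POM. By the same values ATRA+POM stood at 1.56 over ATRA and 2.01 over POM, so the direction held and the sizes did not.

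**Figure D5:**
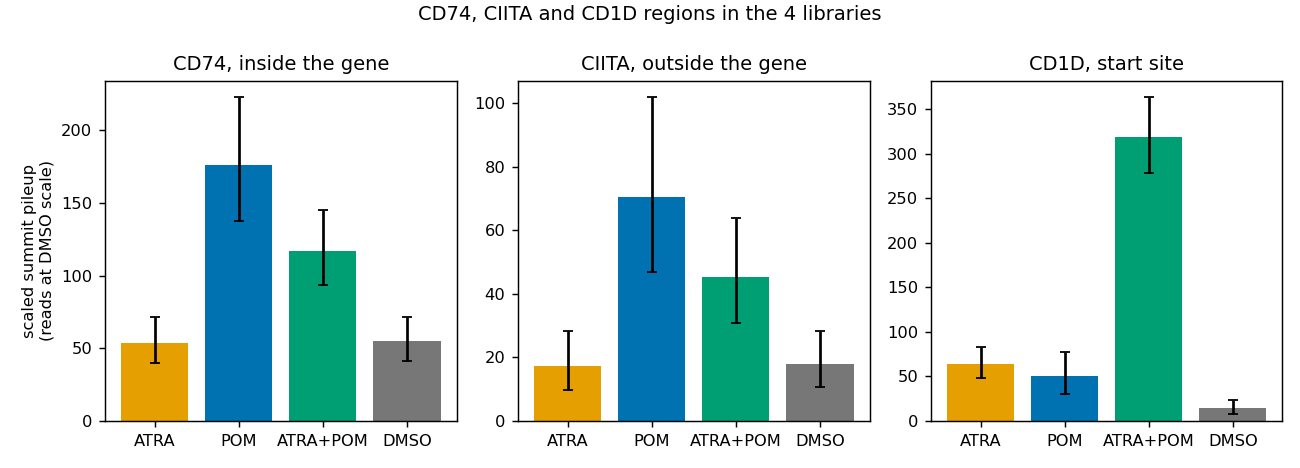
Scaled summit pileup (y axis, reads at the DMSO scale) in the 4 libraries (x axis) of the CD74 region inside the gene, the CIITA region outside the gene and the CD1D start-site region, with 95% Poisson intervals that cover counting error only. POM has the tallest bar at CD74 and CIITA, and ATRA+POM has the tallest bar at CD1D, 319 against 14.0 in DMSO.

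The calls depend on how libraries are put on 1 scale. With the authors' fold values in place of pileups, CD74 and the outer CIITA region stayed past 2-fold in POM against DMSO (2.45 and 2.21) and stood at 1.82 and 1.68 in ATRA+POM, while the lower regions of PVR (0.882 in POM, 0.729 in ATRA+POM) and NLRC5 (0.835 and 0.793) no longer passed. At the PVR start site the local background itself was 1.64 reads in POM and 4.21 in ATRA+POM, against 13.7 in DMSO. With a scale taken from background depth, the POM ratios of the lower regions were 0.55 at PVR, 0.588 at NLRC5 and 0.566 at CIITA, all short of 2-fold.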

How the data were processed

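ATAC-seq peaks of 4 OPM-2 libraries, 1 per condition, were used as deposited. The authors listed peaks separately in each library on hg38, per the submitters' processing notes; no aligner, peak caller, setting or handling of the Tn5 offset is stated in the labels. Each deposited peak carries a score, a ratio (the fold of summit pileup over background), and −log10 p and −log10 q values; every list ends near q = 0.05.

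First, 5 peaks that lay outside the autosomes and chromosome X were left out. The pileup was recovered from the deposited fold and −log10 p as the whole number whose Poisson tail gives both. The match was within 0.01 for 99.58 to 99.98% of peaks, and the remaining peaks were kept with the closest whole number. The recovery of pileups was tested on simulated data. Peaks overlapping by 1 bp were merged, and libraries were scaled by the median ratio over 42930 shared regions. A region was called past a 2-fold difference. Ratio intervals are exact binomial (Clopper-Pearson) at 95% on pileups; shares have Wilson intervals. With 1 library per condition, no test was possible.

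Named regions are the strongest start-site region of each member, those past 2-fold in any comparison with DMSO, and those gained or lost with 20 reads or more; the ERAP1 regions of chr5:96844285-96844954 and chr5:96868777-96869337, the RFX5 region inside the gene, the ULBP2 region 3.11 kb upstream and the regions near CD1D were added after their values were seen. The members, the second list, markers and motifs were chosen with earlier results of these data known. Python 3.11.15, NumPy 2.4.6, pandas 2.3.3 and SciPy 1.17.1 were used.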

Additional observations from a re-analysis of the deposited data

How the results depend on the processing

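Over 37 counts and medians, 189 alternatives were computed: 169 stayed within their margins, 20 moved and 0 reversed. At a 1.5-fold threshold, ATRA against DMSO had 3 member regions higher and 1 lower, POM against DMSO 6 and 13, ATRA+POM against DMSO 13 lower, ATRA+POM against ATRA 15 lower, and ATRA+POM against POM 1 higher and 4 lower. With a scale from background depth, POM against DMSO had 6 higher and 0 lower, and the ATRA+POM against ATRA median was -0.22; this scale shifted the median of all regions by -0.11 (ATRA against DMSO), 0.24 (POM against DMSO), 0.18 (ATRA+POM against DMSO), 0.28 (ATRA+POM against ATRA) and -0.06 (ATRA+POM against POM). With the authors' fold values, POM against DMSO had 0 lower, and ATRA+POM against DMSO had 0 higher and 0 lower. ATRA+POM against ATRA had 1 higher and 1 lower with a median of -0.17. By these values the member median was -0.04 in POM against DMSO and -0.05 in ATRA+POM against DMSO, both counted as within their margins. The cause was not tested. With a 10 kb limit, POM against DMSO had 1 higher, and with lists of equal length ATRA+POM against POM had 3 gained. Ranked by fold, the DMSO median percentile was 49.5. Leaving out regions equally near another gene, or the HLA-B and HLA-C regions, both chosen after seeing the data, moved none of 25 values each. No paired analysis was possible because each condition has 1 library. The POM library had an estimated 33.6% of the DMSO depth, from the smallest background and the narrowest peak of each list.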
